A study of Mus musculus with 18 samples.

Results

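Kinesin motor genes were described across 18 mouse expression arrays. The 36 kinesins are the probe sets whose mouse gene symbol begins with Kif followed by a digit or by c, which leaves out the kinesin partners Kifap3 and Kifbp, and they were taken from 15780 named genes. The study measured RNA of male germ cells that carry a chromosome translocation, T43H, together with 1 of a pair of other chromosome variants, Ttf or t12, all on a C57BL/10J background. Cells at 2 stages of pachytene, the long phase of meiosis in which paired chromosomes recombine, were sorted from testes of adults aged 2 months. At the pre-mid-pachytene stage there were 3 arrays of Ttf+/+T43H carriers, 3 of t12+/+T43 carriers and 2 of fertile C57BL/10J males. The mid-late stage was sampled in C57BL/10J alone, with 2 arrays. The remaining 8 arrays hold RNA of whole testes, stripped of their tunica, at an age of 15 days: 3 of Ttf+/+T43H, 3 of t12+/+T43 and 2 of C57BL/6J. Both carrier groups share the translocation and the C57BL/10J background, so a difference between them leaves both out, while the testis controls are of another strain, and strain and carrier genotype cannot be told apart there. The 6 carrier arrays of each tissue are called the Ttf carriers and the t12 carriers from here on.

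Kinesins are motor proteins that use ATP to walk along microtubules or to take microtubule ends apart. In meiosis they build the spindle, move and align chromosomes, and divide the cell. In the haploid cells that follow, other family members carry cargo along the manchette, the microtubule sleeve around the spermatid nucleus, and along the growing sperm tail. By their best known role, 12 of the 36 kinesins were placed with the spindle and cytokinesis, 7 with the cilium and flagellum, 14 with cargo transport and 3 with neither. Kif4 was the only member on the X chromosome and Kif6 the only member on chromosome 17. None lay on chromosome 16, the other partner of the translocation. Kifc1, Kif15, Kif7 and Kif19a were not analysed here.

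Promoter sequences of 5 kinesins are shown for members that moved together: Kif9, Kif6 and Kif27, the flagellar kinesins that rose from pre-mid to mid-late pachytene, and Kif17 and Kif2b, the kinesins called lower in sorted t12 carriers. Each runs 5′ to 3′ on the strand of the gene, from 250 bases before the start of transcription to 50 bases after it, as RefSeq gives it on GRCm38.p6. Capitals mark 3 short motifs, each searched on both strands: GTTGCC (a half-site of the X-box bound by RFX factors), CCGTT (the core bound by MYB factors) and TGACG (a half-site of the element bound by CREM and its relatives).
Kif9 (chr9:110476708-110477007, plus strand): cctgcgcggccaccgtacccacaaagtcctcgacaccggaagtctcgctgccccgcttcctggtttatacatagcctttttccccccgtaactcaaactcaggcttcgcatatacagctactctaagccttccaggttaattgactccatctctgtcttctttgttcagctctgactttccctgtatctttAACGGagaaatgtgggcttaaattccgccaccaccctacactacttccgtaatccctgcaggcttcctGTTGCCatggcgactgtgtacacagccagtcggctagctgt
Kif6 (chr17:49614922-49615221, plus strand): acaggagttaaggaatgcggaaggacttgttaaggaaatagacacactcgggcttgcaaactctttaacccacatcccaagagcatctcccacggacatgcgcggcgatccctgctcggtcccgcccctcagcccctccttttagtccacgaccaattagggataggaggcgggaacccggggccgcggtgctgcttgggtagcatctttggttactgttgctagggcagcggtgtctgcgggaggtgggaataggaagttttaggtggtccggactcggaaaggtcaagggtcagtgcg
Kif27 (chr13:58354898-58355197, minus strand): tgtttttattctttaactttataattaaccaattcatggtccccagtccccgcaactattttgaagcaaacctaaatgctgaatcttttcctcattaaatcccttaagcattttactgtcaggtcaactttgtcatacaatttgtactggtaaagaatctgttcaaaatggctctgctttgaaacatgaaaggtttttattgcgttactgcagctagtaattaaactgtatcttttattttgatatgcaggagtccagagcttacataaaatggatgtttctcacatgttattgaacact
Kif17 (chr4:138262001-138262300, plus strand): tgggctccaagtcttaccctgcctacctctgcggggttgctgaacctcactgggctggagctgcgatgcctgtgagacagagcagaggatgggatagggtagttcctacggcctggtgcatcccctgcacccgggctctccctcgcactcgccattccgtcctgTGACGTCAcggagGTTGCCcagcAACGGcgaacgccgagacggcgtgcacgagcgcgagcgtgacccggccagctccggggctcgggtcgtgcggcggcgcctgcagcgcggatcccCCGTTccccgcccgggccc
Kif2b (chr11:91577506-91577805, minus strand): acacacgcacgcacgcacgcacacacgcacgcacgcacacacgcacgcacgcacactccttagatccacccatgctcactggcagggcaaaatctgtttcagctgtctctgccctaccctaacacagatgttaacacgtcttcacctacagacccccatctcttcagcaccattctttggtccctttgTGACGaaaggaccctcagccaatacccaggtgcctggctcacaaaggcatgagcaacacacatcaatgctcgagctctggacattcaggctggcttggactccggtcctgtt
The X-box half-site occurred in the promoters of 8 of the 29 kinesins that had a sequence, against 12.7% of 27025 promoters of the same length. For the MYB core the count was 8 of 29, against 17.7%, and for the CREM half-site 12 of 29, against 21.0%. Kif17 held all 3 motifs: the CREM half-site begins at bases -86 and -83 from the start on opposite strands, so that these 2 matches overlap, the X-box half-site at -73 and the MYB core at -63 and 32. The window of Kif9 held an X-box half-site at base 10 and a MYB core at -59, that of Kif2b held a CREM half-site at -62, and the windows of Kif6 and Kif27 held none of the 3. These matches describe letters in the window and were not set against any binding data.

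The values are log2 expression after GCRMA, a method that corrects background and normalises arrays, so 1 unit is a 2-fold difference, and values below about 4 carry little signal. Spermatocyte markers such as Sycp1 and Sycp3 were high on all arrays (the mean of 6 markers lay between 12.75 and 14.89). The sorted fractions were not free of other RNA. The mean of 9 spermatid markers was 11.63 to 12.22 in C57BL/10J pre-mid-pachytene cells, 10.29 to 10.69 in Ttf carriers and 6.49 to 8.15 in t12 carriers, and that of 6 Sertoli markers was 5.57 to 5.75, 6.41 to 6.96 and 7.14 to 7.99. Ttf carrier replicate 2 stood apart with the highest mean of the spermatogonial markers among sorted arrays (9.87), as did t12 carrier replicate 3 with the highest mean of the Leydig markers (10.27). Correlations between replicates were as low as 0.930 in the sorted carriers and at least 0.995 in the testes. Probe sets at the 3′ end of Gapdh exceeded those at its 5′ end, a gap that widens with poor RNA or labelling, by 3.26 to 3.98 in the sorted carriers, 2.86 to 2.93 in C57BL/10J pre-mid cells, 2.51 to 3.39 in mid-late cells, and the gap was -0.12 to 0.14 in the testes. For beta-actin the gap was 3.06 to 4.41 in the sorted carriers, 2.49 to 2.51 in pre-mid cells, 3.38 to 3.51 in mid-late cells and 1.11 to 1.37 in the testes.

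A kinesin was tested where at least 2 arrays of a tissue reached a log2 value of 4. In sorted cells 28 of the 36 did so (77.8%, against 61.3% of all named genes), in testes 23 did (63.9%, against 57.9%), and 22 did in both. Kif12, Kif13a, Kif1a, Kif1c, Kif21b, Kif26b and Kif5a never reached that value on any array, with Kif21b coming closest at 3.99. At the other end, 21 kinesins were at 4 or more on every array. A further 6 were tested in sorted cells only, and of these Kif6, Kif17, Kif2b and Kif24, a kinesin of the centriole, measured 2.01 to 2.64 on all 8 testis arrays. Kif21a, an axonal motor, showed the opposite pattern, at 7.51 to 8.73 in the testes and under 4 on all sorted arrays but t12 carrier replicate 3 (5.32). In whole testes and sorted fractions alike, fewer cells of a type and less RNA per cell cannot be told apart.

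The comparison of mid-late with pre-mid-pachytene cells of C57BL/10J asks what normal progress through pachytene does to the motors. Of the 28 kinesins tested, 7 rose and 4 fell (limma, adjusted p under 0.05). Of all 9666 genes tested, 26.2% rose and 30.3% fell, or 56.5% in either direction, so the kinesins' 11 of 28 is not above that background. The median log2 change was 0.08 over the tested kinesins and -0.11 over all genes. Of the 7 flagellar kinesins 3 rose and none fell. The spindle kinesins were divided, with 2 of 12 higher and 3 lower, and of the 8 cargo kinesins tested 2 rose and 1 fell. The median of all genes was 0.04 after quantile normalisation and 0.18 after centring each array on its median, and the kinesins then stood at 9 higher and 3 lower under both: Kif23 lost its call, Kif3c gained one under both, Kifc2 under the first and Kif3b under the second.

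**Figure D1:**
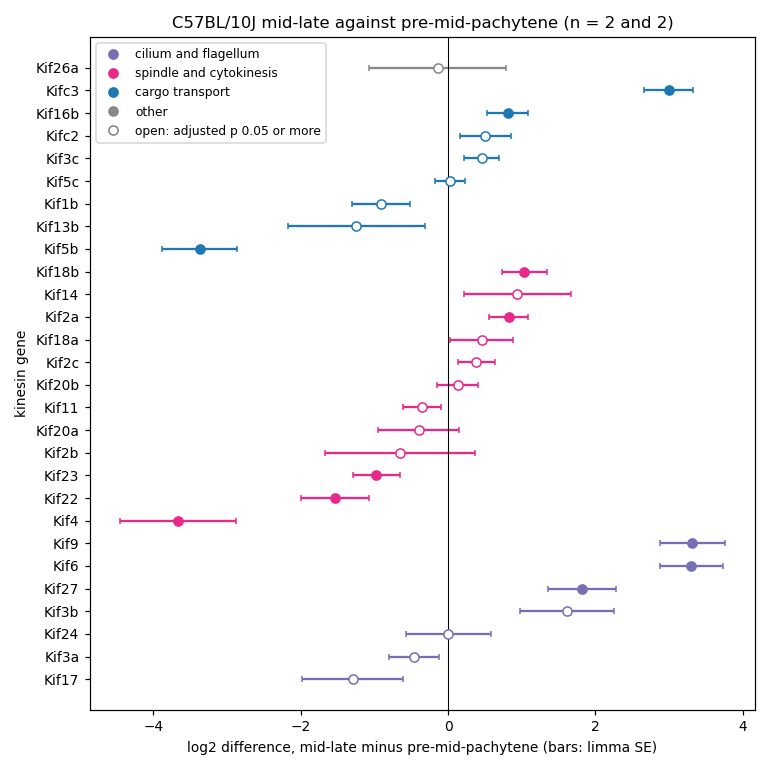
Log2 difference of each of the 28 tested kinesins between mid-late and pre-mid-pachytene C57BL/10J cells (horizontal axis, with limma SE as bars), grouped and coloured by role; filled points passed an adjusted p of 0.05. Kif9 and Kif6 lie furthest to the right, at 3.31 and 3.30, and Kif4 and Kif5b furthest to the left, at -3.66 and -3.37.

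Kif9, a motor of the central apparatus of motile cilia and sperm tails, measured 9.25 and 9.27 in pre-mid cells and 12.56 and 12.58 in mid-late cells. Its mid-late values were the highest of all 18 arrays, and the rise was 3.31 ± 0.44 on the log2 scale (SE, n = 2 and 2, limma adjusted p = 2.53e-04), or 9.94-fold. Kif6, the nearest relative of Kif9 and likewise a ciliary motor, measured 5.59 and 5.43 in pre-mid cells and 8.84 and 8.78 in mid-late cells. It rose by 3.30 ± 0.43 (adjusted p = 2.20e-04), and it was below 3 on every testis array. Kif27, a relative of Kif7 that acts in motile cilia, went from 10.65 and 10.32 to 12.29 and 12.32, a rise of 1.82 ± 0.46 (adjusted p = 0.00885). Without C57BL/10J pre-mid replicate 2, the rise of Kif27 was 1.65 with an adjusted p of 0.0579. Kif9 and Kif6 passed in each of the 4 fits that leave out 1 C57BL/10J array.

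The subunits of the motor that drives intraflagellar transport, Kif3a and Kif3b, had differences of opposite sign, and neither was called. Kif3b was at 7.78 and 7.78 in pre-mid cells and at 9.17 and 9.63 in mid-late cells, a difference of 1.62 ± 0.64 that missed the threshold (adjusted p = 0.0581). Kif3a was at 9.48 and 9.49, then at 8.99 and 9.05, a difference of -0.47 ± 0.34 (adjusted p = 0.277). The ranges of both genes were apart between the stages, in opposite directions. With so few arrays per stage, ranges were apart for most tested kinesins, so this does not set these genes off. The share over all genes was not counted. Ttf carrier replicate 2 and t12 carrier replicate 3 belong to neither stage group, but their spread enters the fit. Leaving them out was chosen from earlier results of these data. Without them both genes passed, with adjusted p = 0.00518 for Kif3b and 0.0480 for Kif3a, and the kinesins called numbered 14, adding Kif1b. Kif17 (7.10 and 5.57, then 5.98 and 4.10) and Kif24 (6.36 and 6.46 at both stages) did not pass.

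**Figure D2:**
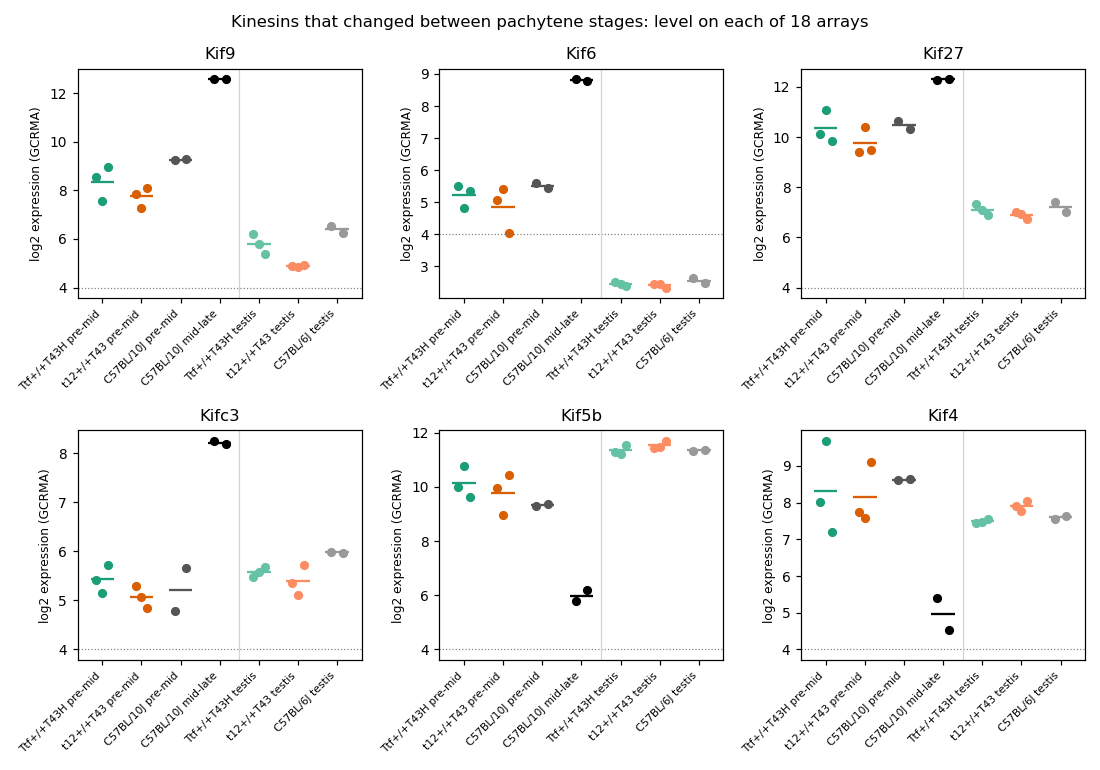
Log2 expression of 6 kinesins on each of the 18 arrays (points) with group means (bars); the dotted line marks the detection value of 4 and the vertical line divides sorted cells from testes. Kif9, Kif6, Kif27 and Kifc3 are highest in C57BL/10J mid-late cells, and Kif5b and Kif4 are lowest there.

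Among the spindle motors, Kif4 fell furthest. This chromokinesin organises the central spindle. It measured 8.61 and 8.64 in pre-mid cells and 5.40 and 4.52 in mid-late cells, so that it fell by 3.66 ± 0.79 (adjusted p = 0.00374), or 12.7-fold. The level of X-linked genes relative to autosomal genes moved with it: it was -0.62 and -0.58 in the pre-mid cells and -3.55 and -3.65 in the mid-late cells. Its part in the fall of this X-linked gene was not tested. Kif22, the other chromokinesin measured, went from 9.40 and 9.60 to 8.0 and 7.92, a fall of 1.54 ± 0.46 (adjusted p = 0.0189). Kif23, the motor subunit of centralspindlin in cytokinesis, went from 8.92 and 9.23 to 8.05 and 8.15, a fall of 0.98 ± 0.32 (adjusted p = 0.0282).

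A pair of spindle motors rose. Kif18b, which shortens astral microtubules, measured 8.21 and 8.59 in pre-mid and 9.38 and 9.50 in mid-late cells (1.04 ± 0.31, adjusted p = 0.0187). Kif2a, which depolymerises microtubule ends, measured 7.51 and 7.65, then 8.14 and 8.66 (0.82 ± 0.27, adjusted p = 0.0290). The remaining 7 spindle kinesins did not pass. Kif11, the motor that pushes spindle poles apart, measured 8.27 and 8.55, then 7.96 and 8.14. Kif20a, which acts late in cytokinesis, measured 12.10 and 12.25, then 11.73 and 11.81. Kif2c, the centromeric depolymerase, measured 8.77 and 8.92, then 9.19 and 9.26. The ranges of these 3 genes were apart between stages, as were those of most tested kinesins. The differences were small beside the spread of all sorted arrays: -0.36 ± 0.26 for Kif11, -0.40 ± 0.55 for Kif20a and 0.38 ± 0.25 for Kif2c.

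The cargo motors held opposite changes of near equal size. Kif5b, the widely expressed heavy chain of conventional kinesin, measured 9.31 and 9.39 in pre-mid cells and 5.77 and 6.18 in mid-late cells. It fell by 3.37 ± 0.51 (adjusted p = 4.85e-04), or 10.4-fold, while its testis values, 11.24 to 11.70, were its highest of the series. Kifc3, a motor that walks towards microtubule minus ends, measured 4.78 and 5.65, then 8.25 and 8.18. It rose by 3.0 ± 0.33 (adjusted p = 8.56e-05), or 7.98-fold. Kif16b, which moves early endosomes, measured 9.19 and 9.39, then 10.13 and 10.07 (0.81 ± 0.28, adjusted p = 0.0342). Kif5c, a close relative of Kif5b known from neurons, lay between 4.29 and 4.37 at both stages, a difference of 0.02 ± 0.20 that missed the threshold. Kif1b, a carrier of mitochondria and vesicles, missed it too, at 7.80 and 7.68, then 6.71 and 6.95 (-0.91 ± 0.39, adjusted p = 0.0778).

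Of the 11 kinesins called between stages, 5 (Kif9, Kif6, Kifc3, Kif5b and Kif4) passed whichever C57BL/10J array was left out. Each such fit leaves 1 stage with a lone array, which is assumed to vary like the other groups, as do the testis fits without a C57BL/6J array. Kif16b, Kif22 and Kif23 missed the threshold without any 1 of those 4 arrays, with adjusted p up to 0.160, 0.0907 and 0.152. Kif18b passed only without pre-mid replicate 2 and Kif2a only without mid-late replicate 1, and otherwise reached 0.122 and 0.227. Markers of other cells moved between the stages as well. The Sertoli marker mean was 3.73 to 3.97 in mid-late against 5.57 to 5.75 in pre-mid cells, and 4 of the 5 Sertoli markers tested fell. Amh was under 4 on every array, Cldn11 and Wt1 were under 4 in mid-late cells, and Sox9 measured 4.55 and 4.54 against 4.30 and 4.20. The mean of 5 spermatogonial markers was 2.86 to 3.08 against 6.52 to 7.10, and 4 of the 5 fell, while Zbtb16 was under 4 at both stages. The macrophage marker Adgre1 rose, from 3.25 and 3.22 to 5.15 and 4.64, with Cd68 and Csf1r under 4 at both stages. Of 3 peritubular and endothelial markers tested 2 fell, and none of 4 Leydig markers passed, though all 4 differences were negative. The spermatid marker mean was 9.37 to 9.93 against 11.63 to 12.22. Of the 6 spermatocyte markers 3 fell and none rose, and their mean was 13.11 to 13.18 against 14.39 to 14.50. Among all genes tested, 30.3% fell and 26.2% rose. The beta-actin gap between 3′ and 5′ probe sets, given above, was also wider in mid-late cells. The part of other cells and of RNA quality in the kinesin differences was not tested.

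Partner genes of the kinesins were read in the same comparison. Intraflagellar transport carries tubulin and other parts into the growing tail on the Kif3 motor, and 14 genes of this machinery and of the manchette were tested: 6 rose, 1 fell, and their median change was 1.01. For each partner list the background is the same, 26.2% of all genes higher and 30.3% lower. Spag16 of the central apparatus rose by 4.87 ± 0.65 (adjusted p = 2.42e-04), Ift140 by 2.59 ± 0.37 (3.64e-04), Ift46 by 2.08 ± 0.35 (8.69e-04) and Ift57 by 1.26 ± 0.33 (adjusted p = 0.0107). Of 10 light chains and adaptors, 1 rose and 2 fell. Trak1, which couples conventional kinesin to mitochondria, rose by 3.84 ± 0.25, while Kifbp, which binds and holds back several kinesins, fell by 1.26 ± 0.24. Of 18 spindle partners, 3 rose and 4 fell: the kinase Aurkb rose by 3.72 ± 0.78, and the checkpoint kinase Bub1 and the microtubule polymerase Ckap5 fell by 1.97 ± 0.29 and 2.67 ± 0.77. Of 16 genes of cytoplasmic dynein, the motor that walks the other way, and its activator dynactin, 5 rose and 1 fell, with Dctn4 and Dynlrb2 higher by 1.76 ± 0.21 and 2.44 ± 0.41 and the light chain Dynll2 lower by 3.72 ± 0.34. In the other lists no count of higher genes stood far above the background, and no count of lower genes did in any list. For the transport and manchette list, whether 6 of 14 higher exceeds the 26.2% of all genes was not tested. With 6 higher and 1 lower, its calls in either direction were not above the 56.5% of all genes.

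The sorted pre-mid-pachytene cells of carriers were set against those of C57BL/10J to ask how the motors behave when the chromosome variants are present. In Ttf carriers, 0 of the 28 kinesins passed (limma), against 2.06% of all genes. There, 2 had an unadjusted p under 0.05 (17.9% of all genes), Kif17, which was lower, and Kif2a, which was higher. Kif2a measured 8.25, 8.01 and 8.47 in Ttf carriers and 8.29, 7.93 and 8.07 in t12 carriers, against 7.51 and 7.65 in C57BL/10J. It was called in neither comparison. In t12 carriers, 2 of 28 fell and none rose, against 9.07% of all genes in either direction, 5.83% downward and 3.24% upward. The genes that fell were Kif17 and Kif2b. The median change was -0.18 over the tested kinesins and 0.06 over all genes tested. The 2 C57BL/10J arrays served as controls for both carrier groups, so their error enters both comparisons. With so few arrays, the ranges of many tested kinesins were apart between t12 carriers and C57BL/10J, so a gap alone sets no gene off. The share of all genes with such a gap was not counted.

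Kif17 works beside the Kif3 motor in cilia, and in the male germ line it is known as the carrier of ACT, a coactivator of CREM, in spermatids. It measured 7.10 and 5.57 in C57BL/10J pre-mid cells, 4.06, 4.09 and 4.50 in Ttf carriers and 3.22, 2.92 and 2.11 in t12 carriers. The 3 groups did not overlap, and all t12 values lay below the detection value of 4. The difference between t12 carriers and C57BL/10J was -3.59 ± 0.63 (limma, n = 3 and 2, adjusted p = 0.00968), or 12-fold lower, a size that rests on values near background. The difference of Ttf carriers was -2.12 ± 0.63 (adjusted p = 0.122). Without C57BL/10J pre-mid replicate 1, which had the highest value, the t12 difference was -2.82 with an adjusted p of 0.116. In the whole testes Kif17 measured 2.01 to 2.04.

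Kif2b is a microtubule depolymerase that corrects faulty attachments of chromosomes to the spindle. It measured 10.32 and 9.68 in C57BL/10J pre-mid cells, 8.60, 9.84 and 9.18 in Ttf carriers and 5.18, 8.24 and 4.74 in t12 carriers. The t12 carriers lay below all other sorted arrays, with replicate 2 far above the other t12 arrays. The difference from C57BL/10J was -3.95 ± 0.93 (limma, adjusted p = 0.0333), or 15.5-fold lower. It missed the threshold without t12 carrier replicate 1 (-3.51, adjusted p = 0.0954) or 3 (-3.29, 0.0927) and without C57BL/10J replicate 1 (-3.63, 0.245) or 2 (-4.27, 0.148). Without t12 replicate 2 it was -5.05 (adjusted p = 4.17e-04). In mid-late C57BL/10J cells Kif2b measured 9.75 and 8.94, and in the testes 2.49 to 2.63.

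By group mean, the spermatid marker RNA was ordered like Kif17 and Kif2b over the pre-mid groups, lowest in t12 carriers and highest in C57BL/10J. The mean of the 9 markers was 6.49, 8.15 and 6.55 on the t12 arrays 1, 2 and 3, against 10.29, 10.55 and 10.69 in Ttf carriers and 12.22 and 11.63 in C57BL/10J. Of the 3 t12 arrays, replicate 2 was highest for these markers and for Kif2b. Kif17 did not follow the markers there, at 3.22, 2.92 and 2.11. In Ttf carriers Kif2b was highest on replicate 2 (9.84) and the markers on replicate 3. The mid-late group departed from the order of the pre-mid groups. Its marker mean, 9.93 and 9.37, lay below that of the Ttf carriers. Its group means of Kif17 (5.04, against 4.21 in Ttf carriers) and Kif2b (9.34, against 9.20) lay above theirs. Of the 9 markers, 8 were lower in t12 carriers than in C57BL/10J by limma. Prm2 measured 5.03, 6.46 and 5.26 in t12 carriers against 12.80 and 12.18 in C57BL/10J. In the testes at 15 days, 7 of the 9 markers were under 4 on every array, as were Kif17 and Kif2b. The part of spermatid RNA in the differences of Kif17 and Kif2b was not tested.

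**Figure D3:**
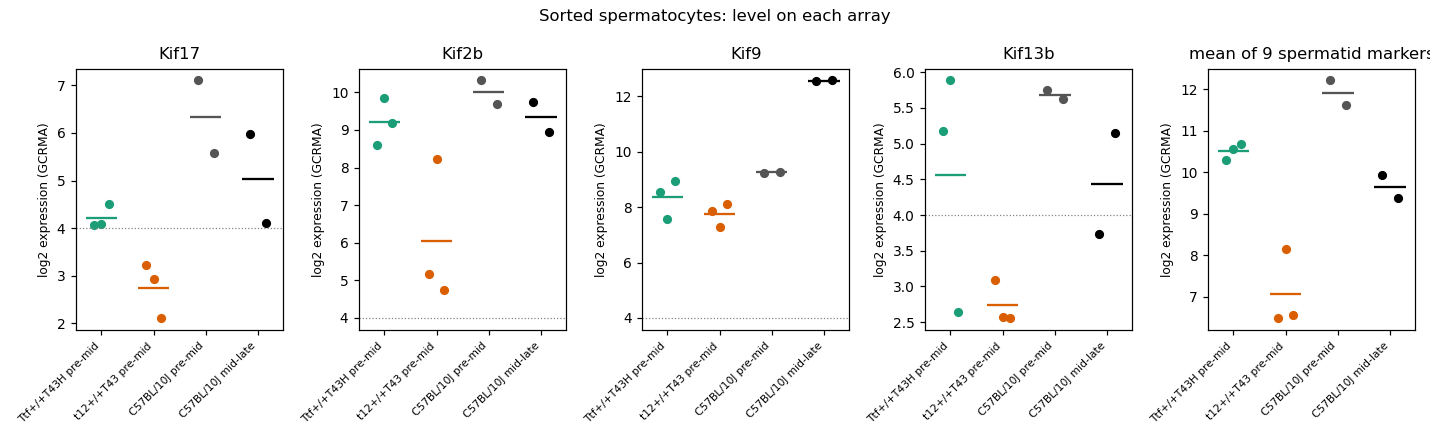
Log2 expression of Kif17, Kif2b, Kif9 and Kif13b, and the mean of 9 spermatid markers, on each of the 10 arrays of sorted cells (points) with group means (bars); the dotted line marks the detection value of 4. For Kif17, Kif2b and the marker mean, the 3 t12+/+T43 arrays lie below every other pre-mid-pachytene array.

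Kif9 and Kif13b lay just outside the threshold in the comparison of t12 carriers with C57BL/10J. Kif9 measured 7.85, 7.28 and 8.11 in t12 carriers and 8.56, 7.57 and 8.94 in Ttf carriers, below the 9.25 and 9.27 of C57BL/10J. Neither carrier group overlapped with C57BL/10J, and the differences were -1.51 ± 0.41 for t12 (adjusted p = 0.0540) and -0.90 ± 0.41 for Ttf (adjusted p = 0.291). The first passed after quantile normalisation (-1.57, adjusted p = 0.0440) and after median centring (-1.54, 0.0360). With the replicate number as a block in the fit it passed too (-1.75, 0.0388), while Kif17 and Kif2b did not both keep their calls. The t12 difference of Kif9 also passed without the arrays that stood apart (-1.70, 0.0119). Those arrays also bore on the other calls: without them Kif17 differed by -3.27 (adjusted p = 0.0353), Kif2b missed the threshold (-3.29, 0.0716), and Kif24 was called higher (1.08, 0.0311). Kif13b, which carries membrane proteins, measured 3.09, 2.57 and 2.56 in t12 carriers and 5.75 and 5.62 in C57BL/10J (-2.95 ± 0.85, adjusted p = 0.0689). The Ttf carriers were spread over the whole range for Kif13b, at 5.17, 5.88 and 2.64.

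None of the other kinesins passed between carriers and C57BL/10J in sorted cells, though some differences were not small. Kif26a, an atypical kinesin, measured 5.73, 5.43 and 6.33 in t12 carriers and 4.44, 7.77 and 4.88 in Ttf carriers, against 4.44 and 4.88. The t12 carriers lay above C57BL/10J without overlap (1.17 ± 0.85, adjusted p = 0.499), and many tested kinesins showed such a gap in either direction. The Ttf carriers overlapped with C57BL/10J for Kif26a (1.04 ± 0.85, 0.592). Kif24 measured 7.24, 7.75 and 6.95 in t12 carriers and 7.11, 5.19 and 6.90 in Ttf carriers, against 6.36 and 6.46, a difference of 0.90 ± 0.53 in t12 carriers (adjusted p = 0.379). The motors that changed most between the pachytene stages were also not called. Kif6 measured 5.06, 5.43 and 4.05 in t12 carriers and 5.49, 4.82 and 5.34 in Ttf carriers, against 5.59 and 5.43. Kifc3 measured 5.28, 5.06 and 4.85 in t12 carriers and 5.42, 5.15 and 5.72 in Ttf carriers, against 4.78 and 5.65. Kif27 measured 9.42, 10.39 and 9.48 in t12 carriers and 10.13, 11.09 and 9.83 in Ttf carriers, against 10.65 and 10.32. None of these 3 genes reached on any carrier array its lowest value in mid-late cells. Kif5b measured 9.95, 8.97 and 10.43 in t12 carriers and 10.00, 10.78 and 9.63 in Ttf carriers, all above its mid-late values. In Ttf carriers it lay above C57BL/10J without overlap, by 0.79 ± 0.46 (adjusted p = 0.423). Kif4 ranged widely, at 7.75, 7.57 and 9.12 in t12 carriers and 8.03, 9.68 and 7.20 in Ttf carriers. Its highest value in each group lay on the array with the highest level of X-linked against autosomal genes, t12 replicate 3 (-0.08) and Ttf replicate 2 (-0.17). These are the arrays that stood apart. The Leydig marker mean was 10.27 and the Sertoli mean 7.99 on t12 replicate 3, and the spermatogonial mean was 9.87 on Ttf replicate 2. The part of such cells and of the X-linked level in the values of Kif4 was not tested.

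Between the carrier groups themselves, 0 of the 28 kinesins passed in sorted cells (limma), against 0.755% of all genes. At an unadjusted p under 0.05 there were 3, against 10.2% of all genes: Kif2b (-3.16 ± 0.83 in t12 minus Ttf, adjusted p = 0.167), Kif17 (-1.47 ± 0.56, 0.392) and Kif13b (-1.82 ± 0.76, 0.451). The ranges of Kif2b and Kif17 did not overlap between the carrier groups, while those of Kif13b did. Without t12 carrier replicate 2, Kif2b passed with a difference of -4.25 (adjusted p = 0.00107). Of the partner lists, 0 genes of the 4 lists passed between the carriers in sorted cells. Against C57BL/10J, 1 of 14 transport and manchette genes fell in t12 carriers (Ift140, -1.87 ± 0.34, adjusted p = 0.0113), as did 1 of 16 dynein and dynactin genes (Dctn5, -1.03 ± 0.23, 0.0267).

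In the testes at 15 days the spread between arrays was smaller, and smaller differences passed. Against C57BL/6J, 3 of 23 kinesins were higher and 3 lower in t12 carriers, against 21.8% of all genes in either direction (10.5% upward, 11.3% downward). In Ttf carriers 1 was higher and 1 lower, against 8.56% of all genes (3.86% upward, 4.7% downward). Between t12 and Ttf carriers 1 was higher and 1 lower, against 4.99% (1.07% upward, 3.92% downward). In t12 carriers, flagellar Kif9 and the minus-end motor Kifc3 were lower than in C57BL/6J. Of the spindle motors called there, Kif18a, Kif2a and Kif4 were higher and Kif22 was lower. Median changes of the tested kinesins were 0.06, -0.03 and 0.03 in the 3 comparisons, and of all genes 0.02, 0.00 and 0.02.

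**Figure D4:**
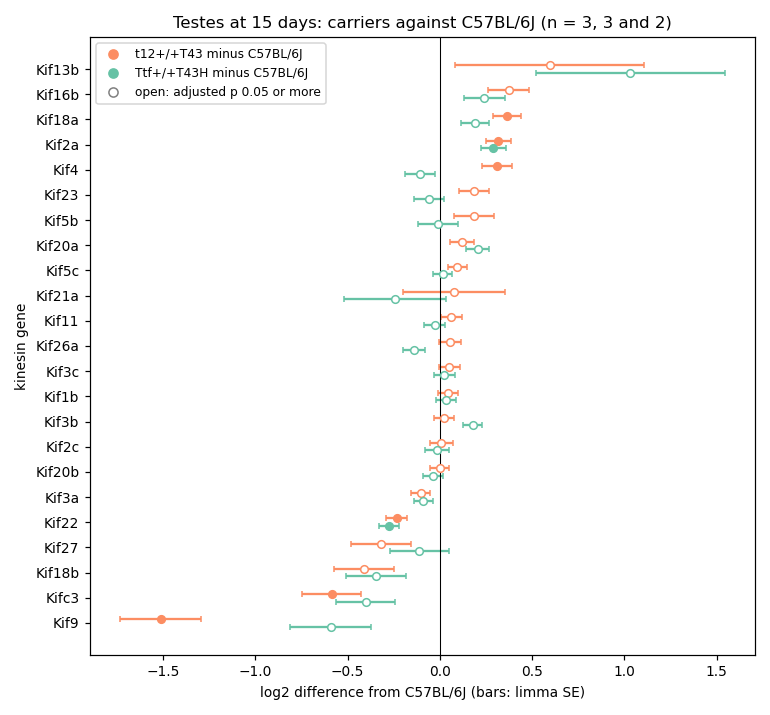
Log2 difference from C57BL/6J of the 23 kinesins tested in testes at 15 days, for t12+/+T43 (orange) and Ttf+/+T43H (green) carriers, with limma SE as bars; both sets use the same 2 control arrays, and filled points passed an adjusted p of 0.05. Kif9 lies furthest to the left in t12+/+T43, at -1.51, and the other called differences lie between -0.59 and 0.36.

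In the testes, too, Kif9 was lowest in t12 carriers. It measured 6.53 and 6.25 in C57BL/6J, 6.22, 5.81 and 5.37 in Ttf carriers and 4.88, 4.85 and 4.91 in t12 carriers. For Kif9 none of the 3 groups overlapped, though the ranges of many tested kinesins were apart between t12 carriers and C57BL/6J. The difference of t12 carriers was -1.51 ± 0.22 from C57BL/6J (limma, n = 3 and 2, adjusted p = 0.00465), or 2.85-fold lower, and -0.92 ± 0.20 from Ttf carriers (adjusted p = 0.0466), or 1.89-fold lower. Ttf carriers differed from C57BL/6J by -0.59 ± 0.22 (adjusted p = 0.150). The difference from C57BL/6J passed whichever array was left out, with adjusted p up to 0.0465. Of the fits that leave out 1 carrier array, the difference between carriers passed only in that without Ttf replicate 3 and reached 0.151 without Ttf replicate 2, and after quantile normalisation it was -0.87 with an adjusted p of 0.0509, leaving 1 kinesin called in that comparison.

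Kifc3 measured 6.00 and 5.96 in C57BL/6J, 5.47, 5.58 and 5.68 in Ttf carriers and 5.36, 5.11 and 5.71 in t12 carriers. Both carrier groups lay below C57BL/6J, by 0.59 ± 0.16 in t12 (adjusted p = 0.0396) and 0.40 ± 0.16 in Ttf (adjusted p = 0.170). Kif27 measured 7.43 and 7.01 in C57BL/6J, 7.31, 7.11 and 6.91 in Ttf carriers and 7.03, 6.94 and 6.74 in t12 carriers, with overlapping ranges and no call. Of the 6 spermatocyte markers, 1 passed as lower in the t12 testes, Ldhc, the germ cell lactate dehydrogenase, by 1.37 against C57BL/6J and by 1.28 against Ttf carriers. Against C57BL/6J, 3 of the 6 had a positive and 3 a negative difference, with a median of -0.03, while against Ttf carriers all 6 were negative, with a median of -0.22. The mean of the 6 markers was 12.75 to 13.20 in t12 carriers, 13.35 to 13.74 in Ttf carriers and 13.33 and 13.49 in C57BL/6J, and Piwil1 of the piRNA pathway differed by -1.16 ± 0.35 from C57BL/6J without passing. The part of spermatocyte number or stage in the differences of Kif9 and Kifc3 was not tested.

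The spindle motors moved by less. Kif4 measured 7.92, 7.78 and 8.03 in t12 carriers, 7.44, 7.47 and 7.57 in Ttf carriers and 7.57 and 7.64 in C57BL/6J. It was higher in t12 than in Ttf carriers by 0.42 ± 0.07 (adjusted p = 0.0376) and than in C57BL/6J by 0.31 ± 0.08 (0.0357). X-linked genes, relative to autosomal genes as defined above, were at 0.60 to 0.67 in t12 carriers, 0.38 to 0.51 in Ttf carriers and 0.43 to 0.46 in C57BL/6J. Their part in the difference of Kif4 was not tested. Kif18a, which aligns chromosomes and is needed for fertility of male mice, measured 9.32, 9.39 and 9.24 in t12 carriers, 9.27, 9.09 and 9.08 in Ttf carriers and 8.95 and 8.96 in C57BL/6J. It was higher in t12 carriers than in C57BL/6J by 0.36 ± 0.08 (adjusted p = 0.0171). Markers of other testis cells moved in the same comparison. Of 5 spermatogonial markers, 2 rose (Stra8 by 0.40 ± 0.07 and Kit by 0.49 ± 0.12), and of 5 Sertoli markers tested, 2 rose (Wt1 by 0.24 ± 0.05 and Sox9 by 0.16 ± 0.05). Of 4 Leydig markers, 1 fell (Hsd3b1, by 0.83 ± 0.16), and the other 3 had negative differences that did not pass. Of 3 macrophage markers, 1 fell (Adgre1, by 0.94 ± 0.23). The marker means were 8.87 to 8.89 in t12 carriers and 8.70 in C57BL/6J for spermatogonia, 9.56 to 9.72 and 9.46 to 9.47 for Sertoli cells, and 5.72 to 8.98 and 8.77 to 9.38 for Leydig cells. Their part in the differences of the spindle motors was not tested.

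Kif2a and Kif22 differed from C57BL/6J in both carrier groups. Kif2a measured 7.98, 7.86 and 8.08 in t12 carriers and 7.96, 7.94 and 7.95 in Ttf carriers, against 7.67 and 7.65, a difference of 0.32 ± 0.07 (adjusted p = 0.0185) and 0.29 ± 0.07 (0.0452). Kif22 measured 9.09, 9.02 and 9.08 in t12 carriers and 8.97, 8.99 and 9.10 in Ttf carriers, against 9.31 and 9.28, a difference of -0.23 ± 0.05 (adjusted p = 0.0241) and -0.27 ± 0.05 (0.0262). For both genes the carriers shared the control arrays, and all 6 carrier arrays lay on the same side of them. The difference between the carrier groups was 0.03 ± 0.06 for Kif2a and 0.04 ± 0.05 for Kif22. Just outside the threshold, Kif16b was higher in t12 carriers than in C57BL/6J, at 9.05, 9.13 and 8.86 against 8.75 and 8.53 (0.37 ± 0.11, adjusted p = 0.0524), and it passed after quantile normalisation and after median centring, which gave 4 kinesins higher and 3 lower. In Ttf carriers quantile normalisation added Kif3b, for 2 higher and 1 lower.

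These testis calls rest on few arrays. Of the 6 calls of t12 carriers against C57BL/6J, Kif9 alone passed whichever array was left out, and the others reached an adjusted p of 0.0973 to 0.193. Kif18a and Kif2a each missed the threshold without either C57BL/6J array and without t12 replicate 2 or 1. Kif22, Kif4 and Kifc3 each missed it without either C57BL/6J array and without 2 of the t12 arrays. In Ttf carriers both calls missed it without either C57BL/6J array, Kif22 also without Ttf replicate 1 or 2 and Kif2a without any 1 of the Ttf arrays, with adjusted p up to 0.155 and 0.202. Of the fits that leave out 1 carrier array, the call of Kif4 between carriers passed only in that without Ttf replicate 3, and the others reached 0.136.

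Partner genes were read in the testes too. Of 14 genes of intraflagellar transport and the manchette, 8 fell and none rose in t12 carriers against C57BL/6J, where 11.3% of all genes fell and 10.5% rose. Their median change was -0.42, and 2 of the 14 had a positive difference. Against Ttf carriers, 3 of the 14 fell, where 3.92% of all genes fell, with a median of -0.35. Ift140 was lower than in C57BL/6J by 1.06 ± 0.08 (limma, adjusted p = 4.99e-04), Ift88 by 0.35 ± 0.04 (0.00262), Ift27 by 0.72 ± 0.12 (0.00711) and Spag16 by 1.96 ± 0.34 (0.00838). In Ttf carriers against C57BL/6J, 1 of the 14 fell, Ift140, by 0.83 ± 0.08 (adjusted p = 0.00231), where 4.7% of all genes fell. Of the 16 dynein and dynactin genes, 3 fell in t12 carriers against C57BL/6J, among them the light chain Dynlrb2 by 1.79 ± 0.27 and Dync2li1, of the dynein that returns from the tail tip, by 0.56 ± 0.09. Of 17 spindle partners tested, 1 rose, Bub1, by 0.33 ± 0.05, and 5 fell, led by the kinetochore protein Nuf2 at 0.71 ± 0.10. Of 9 light chains and adaptors, 1 rose, Kifbp, by 0.17 ± 0.05. The same 11.3% and 10.5% are the background of these counts.

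The difference between t12 and Ttf carriers was also tested for whether it differs between sorted cells and testes. Of 29 kinesins, 0 passed (limma over all 18 arrays), against 0.734% of all genes, and 2 had an unadjusted p under 0.05, against 7.64% of all genes. Those were Kif2b, whose t12 minus Ttf difference was lower in sorted cells than in testes by 3.14 ± 0.93 (adjusted p = 0.216), and Kif17, lower by 1.47 ± 0.62 (adjusted p = 0.567), both below the detection value in the testes. Their values therefore restate the sorted difference and do not show that the tissues differ, and the same holds for the value of Kif2b without t12 carrier replicate 2 of the sorted cells, -4.23 (adjusted p = 3.40e-05). For Kif9, which was measured well above background in both tissues, the value was 0.31 ± 0.44 (adjusted p = 0.902).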

How the data were processed

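Kinesin levels were read from 18 arrays. Their log2 values are as the authors deposited them, and GCRMA made them, per the submitters' processing notes, with no version named; which arrays were normalised together, the genome build and any filter are not given in the sources used here. Between 20 and 30 ng of RNA was labelled, per the labels. A low input amplified in this way can bias levels between RNA qualities. The deposited log2 table holds 16539 probe sets; the 759 without a gene symbol were left out. Genes with fewer than 2 arrays at 4 or more in a tissue were not tested there. Sorted cells (10 arrays) and testes (8 arrays) each had a limma fit (version 3.58.1, R 4.3.3, lmFit on group means, eBayes), and all 18 arrays a further one for the difference between tissues. Tests were two-sided, with Benjamini-Hochberg adjustment across the tested genes. The fit was tested on simulated arrays in which 200 genes changed. Of 2-fold changes, 4% were recovered between stages, 12% to 30% in the sorted carrier comparisons and 95% to 96% in testes. Of 4-fold changes, 49%, 60% to 76% and 98% to 99% were recovered. These shares need not hold where many genes changed, as between stages. A sorted kinesin that was not called may thus still differ by 2-fold. The design calls the replicates biological; precision is limited by 2 or 3 arrays per group. Same-numbered arrays did not deviate together in every pair (correlations -0.35 to 0.25 in sorted cells, -0.07 to 0.68 in testes). In sorted cells the median correlation was -0.10 for same-numbered arrays and 0.08 for others. In testes it was 0.26 and -0.20, so same-numbered testis arrays did tend to deviate together. Numbers were not used as pairs in the main fits, and counts with them as a block are given below. Every kinesin called or near the threshold was named, with at most 4 partners per list and comparison, those of smallest p. Members and lists were chosen with earlier results of these data known. RefSeq promoters came from GRCm38.p6, the first listed per gene. Kifc1, Kifc5b, Kif15, Kif7 and Kif19a were not analysed here.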

Additional observations from a re-analysis of the deposited data

How the results depend on the processing

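Under alternative filters, scalings and fits, no kinesin that passed changed its direction, and of the refits of single called kinesins 181 stayed past the threshold and 74 did not. The counts of kinesins called were as follows where they moved by more than 1.5 times under a filter or scaling. With no filter on low values it was 1 for t12 carriers against C57BL/10J, 17 for mid-late against pre-mid cells, 0 for t12 against Ttf testes and 1 for Ttf against C57BL/6J testes. Besides Kif3c, the kinesins added among the 17 were Kif12, Kif1a, Kif1c, Kif21b and Kif26b, which never reached log2 4 on any array. With a filter at log2 6 the count was 1 for t12 carriers against C57BL/10J, where Kif17 was then not tested. Quantile normalisation left 1 for t12 against Ttf testes. Leaving out 1 array at a time gave 0 to 1 for t12 against Ttf sorted cells, 0 to 0 for Ttf against C57BL/10J, 0 to 2 for t12 against C57BL/10J, 6 to 8 for the stages, 0 to 2 for t12 against Ttf testes, 0 to 1 for Ttf against C57BL/6J, 1 to 7 for t12 against C57BL/6J and 0 to 1 for the difference between tissues. The replicate number as a block is a pairing left out of the main fits, though same-numbered testis arrays tended to deviate together. With this block, counts, moved or not, were 4 for t12 against Ttf testes, 5 for Ttf and 8 for t12 against C57BL/6J testes. They were 9 for the stages, 2 for t12 carriers against C57BL/10J and 0 in the other comparisons. The 2 for t12 carriers included Kif9, which was not called in the main fit, so Kif17 and Kif2b did not both keep their calls. Leaving out both arrays that stood apart was chosen from earlier results of these data, and for the difference between tissues it was added after seeing the data. It gave 3 for t12 carriers against C57BL/10J and 14 for the stages, both within 1.5 times of the counts reported, and 0 in the other sorted comparisons and for the difference between tissues. Values near or below log2 4 limit what can be said of the size of the differences of Kif17 and Kif13b.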
